A study of Mus musculus with 18 samples.

Results

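Integrins are cell surface receptors made of 1 alpha and 1 beta chain, and they hold cells to the extracellular matrix and pass signals in both directions across the membrane. The alpha chain largely sets which matrix protein is bound, while the beta chain tail recruits talin, kindlin and other adaptors that link the receptor to actin. In the ovary, follicles are enclosed by a basement membrane of laminin and type IV collagen, and granulosa, theca, stromal, vascular and surface epithelial cells each carry their own set of integrins. Described here are 10 integrin subunit genes, found by their symbols among the 30172 genes listed for each of the 18 ovary libraries. They comprise 6 alpha subunits (Itga1, Itga3, Itga6, Itga8, Itga9 and Itgav) and 4 beta subunits (Itgb1, Itgb3, Itgb4 and Itgb5), and all 10 were present in every library. On the mouse genome (GRCm38.p6, RefSeq) Itgb3 spans chr11:104608000-104670476, Itgb4 chr11:115974725-116008412, Itga9 chr9:118606709-118901003 and Itga6 chr2:71786886-71858427.

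The ovaries came from wild type C57BL/6J female pups of the F1 generation, which were not themselves treated. F1-HHcy pups were born to dams fed 3% methionine, a diet that raises homocysteine (hyperhomocysteinemia, HHcy), and F1-Control pups to dams on normal chow. According to the labels the diet ran from 4 weeks before mating to the end of lactation, whereas the study's methods give a longer period before mating. Ovaries were taken at postnatal day 3, 7 or 21 (Pd3, Pd7, Pd21), with 3 libraries for each of the 6 groups. Pd3 and Pd7 were labelled batch 1 and Pd21 batch 2, so each diet comparison lay within a batch, and age and batch cannot be told apart wherever Pd21 was set against another day. The sources used here do not say whether a library held 1 pup or several, and p-values therefore measure the spread between these libraries, which may be technical.

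Each library held between 33630641 and 39399281 fragments on genes, and no library was a copy of another. The best correlation of a library with another of its own group lay between 0.962 and 0.994 (log2 values), and F1-HHcy Pd3 replicate 3 was the lowest. All 8 germ cell and oocyte markers had a mean of at least 1 FPKM in each of the 6 groups. FPKM, the unit of the deposited values, stands for fragments scaled to gene length in kilobases and to library size. The diets were compared on log2(FPKM + 1) with limma, and differences given below are F1-HHcy minus F1-Control on this scale with the standard error (SE). A call required both an unadjusted p under 0.05 and a difference of more than 0.58 in size. Adding 1 understates the change of genes near 1 FPKM, and a single gene tested alone by exact permutation with 3 libraries against 3 cannot reach a p below 0.1. In whole ovary, fewer cells of a type and less RNA per cell cannot be told apart.

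Itgb1, the beta chain shared by most matrix-binding integrins, and Itga3, an alpha chain for laminins, are represented here by the RefSeq promoter windows that run from 250 bases before to 50 bases after a transcript start (GRCm38.p6). They are shown because Itgb1 was the most abundant member and Itga3 was an alpha subunit called at Pd21. The Itgb1 window lies at chr8:128685404-128685703 on the plus strand and that of Itga3 at chr11:95076665-95076964 on the minus strand, and capitals mark the GC box GGGCGG or its reverse complement CCGCCC.
Itgb1: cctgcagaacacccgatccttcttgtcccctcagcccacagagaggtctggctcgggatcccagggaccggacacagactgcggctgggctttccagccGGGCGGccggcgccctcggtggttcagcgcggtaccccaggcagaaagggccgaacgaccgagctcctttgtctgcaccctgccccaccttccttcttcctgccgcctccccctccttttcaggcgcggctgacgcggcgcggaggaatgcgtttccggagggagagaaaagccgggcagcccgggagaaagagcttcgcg
Itga3: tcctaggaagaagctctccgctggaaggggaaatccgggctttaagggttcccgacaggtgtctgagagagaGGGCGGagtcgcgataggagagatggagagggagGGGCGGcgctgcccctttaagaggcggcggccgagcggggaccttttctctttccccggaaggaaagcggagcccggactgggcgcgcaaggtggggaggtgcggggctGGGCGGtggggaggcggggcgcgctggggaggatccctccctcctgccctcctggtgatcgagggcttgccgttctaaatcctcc
The GC box, a short motif bound by Sp family factors, occurred 1 time in the Itgb1 window and 3 times in this Itga3 window. RefSeq windows were matched for 7 of the 10 members (Itga1, Itga3, Itga8, Itga9, Itgav, Itgb1 and Itgb5), with 8 windows in all because Itga3 has a pair. The motif stood on either strand in windows of Itga3, Itgav, Itgb1 and Itgb5 and in 35.7% of all 32851 windows of 300 bases. The TATA box, searched as TATAAA on both strands, was in none of the 8 windows and in 13.6% of all windows. These matches describe letters and not sites in use.

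Because FPKM is scaled by gene length, levels can be compared between members. Itgb1 was the most abundant, with 102 to 163 FPKM over the 18 libraries, and Itga6, the alpha chain of laminin receptors that pairs with Itgb1 or Itgb4, was next with 30.8 to 116 FPKM. Itgb5, a partner of Itgav in vitronectin receptors, ranged from 25.4 to 44.0 FPKM. Itgav itself (10.8 to 39.1 FPKM), Itga9, a receptor chain for tenascin and other ligands (8.86 to 25.7 FPKM), and Itga3 (3.54 to 16.6 FPKM) lay in the middle. Itgb3, the other well-known Itgav partner, ranged from 0.978 to 15.3 FPKM, the widest relative range of the 10, with the highest library 15.6 times the lowest. Itga1, a collagen receptor chain, had 1.35 to 6.46 FPKM, and Itga8, which pairs with Itgb1 and binds RGD ligands, had 1.92 to 4.21 FPKM. Itgb4, the beta chain of hemidesmosomes, was lowest with 0.409 to 2.93 FPKM, which rested on 93 to 740 fragments per library. Itgb1 made up 65.3% to 81.9% of the summed FPKM of the 4 beta members, and Itga6 32.5% to 76.6% of that of the 6 alpha members.

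**Figure D1:**
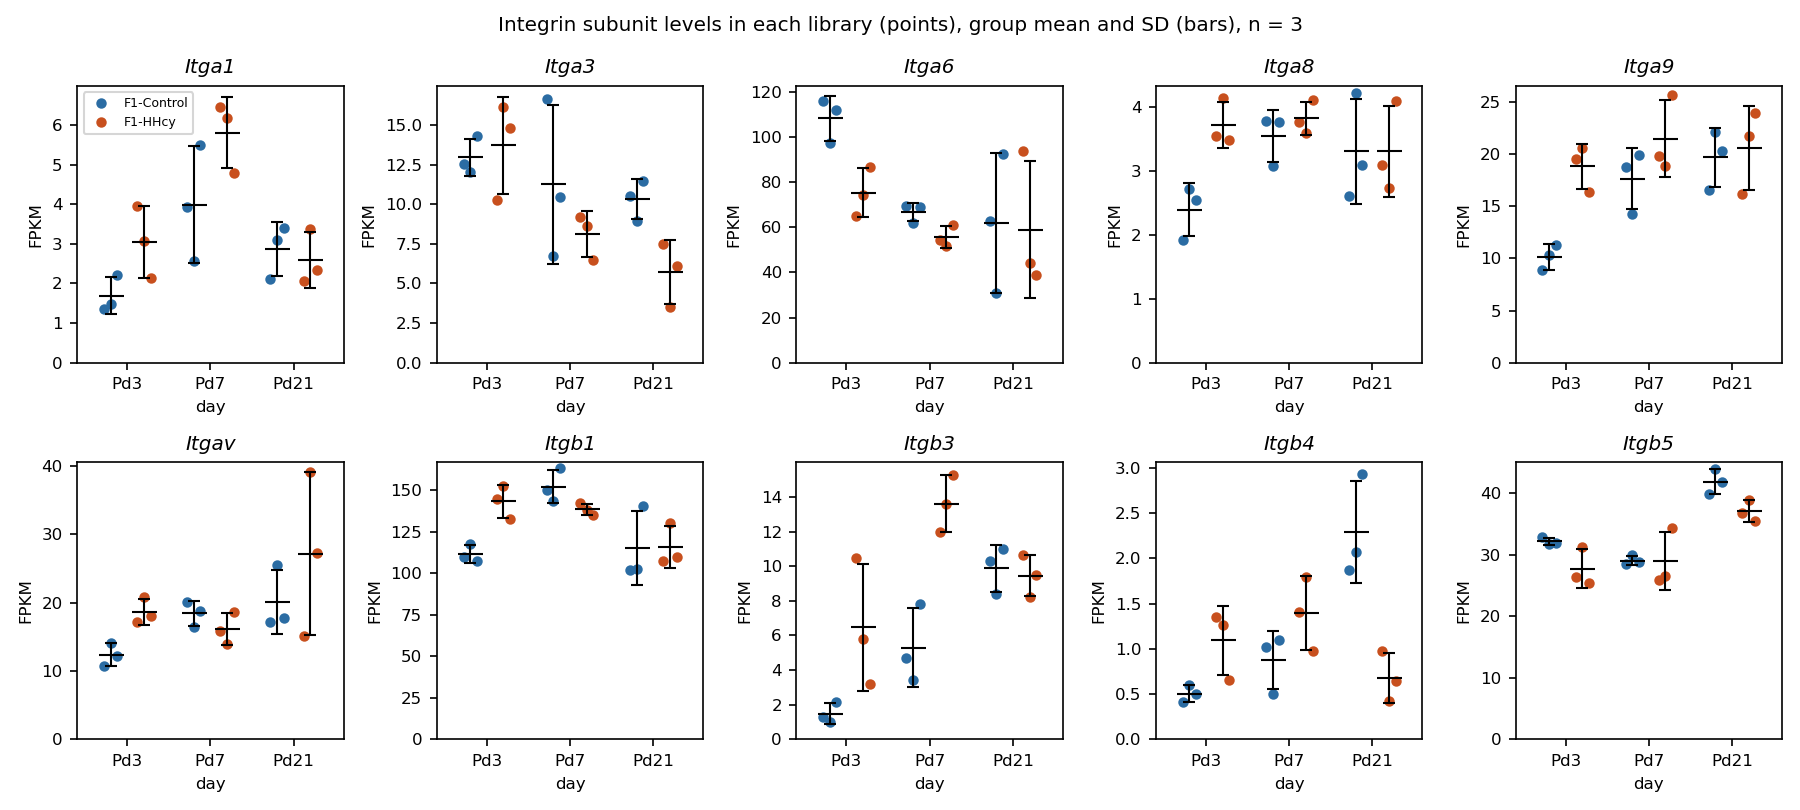
FPKM of each integrin subunit (vertical axes, linear from 0) in each library by day, with F1-Control in blue and F1-HHcy in orange; bars are the group mean and SD of 3 libraries. Itgb3 was higher in all F1-HHcy libraries at Pd3 and Pd7, and Itgb4 was lower in all of them at Pd21.

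At Pd3, most of the measured subunits were higher in F1-HHcy ovaries, while Itga6 and Itgb5 lay lower. Of the 9 members tested, 2 were called higher, Itgb3 and Itga9, beside 5.0% of all 13277 genes, and 0 were called lower, beside 4.74% (limma-voom on fragments recovered from the FPKM called 5 higher and 0 lower). Itgb4 was not tested at this age because fewer than 3 libraries reached 1 FPKM. An unadjusted p under 0.05 was found for 7 of 9 members, 6 of them higher and 1 lower, beside 22.4% of all genes. The groups did not overlap for 7 of 9 members (5 higher and 2 lower), beside 27.9% of all genes, and 1 member, Itga9, had an adjusted p under 0.05, beside 3.07%. The median difference of the 9 members was 0.48, and that of all genes tested was -0.03.

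Itgb3 showed the largest difference of the members at Pd3. It had 1.29, 0.978 and 2.16 FPKM in F1-Control and 10.5, 5.78 and 3.19 FPKM in F1-HHcy libraries. All F1-HHcy libraries lay above all controls, and they differed among themselves by more than the controls did. The means were 1.48 ± 0.612 and 6.48 ± 3.68 FPKM (SD, n = 3), a ratio of 4.39, and the difference was 1.502 (SE 0.357) with an adjusted p = 0.0656 by limma. Itgb3 also forms the platelet receptor with Itga2b. Of 6 platelet markers 5 had means under 1 FPKM in every group, the exception being Pf4. Their summed level was 5.18 to 10.2 FPKM in F1-Control and 5.38 to 8.29 FPKM in F1-HHcy libraries at Pd3. Itga2b itself had means of 0.641 and 0.474 FPKM, and the part of platelets in the difference of Itgb3 was not tested.

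Itga9 had 8.86, 10.3 and 11.3 FPKM in F1-Control and 19.6, 20.6 and 16.4 FPKM in F1-HHcy libraries at Pd3. The groups were well apart, with a ratio of means of 1.86 and a difference of 0.83 (SE 0.13, adjusted p = 0.0288 by limma). Itgav, the alpha chain of vitronectin and fibronectin receptors, had 10.8, 14.1 and 12.2 FPKM in F1-Control and 17.2, 20.8 and 18.01 FPKM in F1-HHcy. Its groups did not overlap either, and its difference of 0.56 (SE 0.13, adjusted p = 0.0649 by limma) lay just under the size required for a call. Itga1 also lay at that limit with a difference of 0.58 (SE 0.21, adjusted p = 0.165 by limma). Its values were 1.35, 1.48 and 2.22 FPKM in F1-Control and 3.95, 3.06 and 2.13 FPKM in F1-HHcy, so that the lowest F1-HHcy library fell within the control range. Itga1 overlaps Pelo in RefSeq, and reads of the pair may not be separable where they overlap. Pelo had means of 16.9 FPKM in F1-Control and 11.2 FPKM in F1-HHcy at Pd3. Its difference was -0.57 (SE 0.17) at Pd3 and -0.43 (SE 0.16) at Pd7. With a pseudocount of 0.1 or by limma-voom, Itga1, Itga8 and Itgav were called higher as well, which brought the count to 5.

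Itga8 had 1.92, 2.71 and 2.55 FPKM in F1-Control and 3.54, 4.14 and 3.48 FPKM in F1-HHcy libraries at Pd3, with a difference of 0.48 (SE 0.15, adjusted p = 0.116 by limma). Itgb1 had 109.7, 117 and 108 FPKM in F1-Control and 145, 153 and 133 FPKM in F1-HHcy, with a difference of 0.36 (SE 0.10, adjusted p = 0.101 by limma). For both genes every F1-HHcy library lay above every control, though neither difference reached the size for a call. Itga6 had 116, 97.3 and 112 FPKM in F1-Control and 65.3, 74.4 and 86.8 FPKM in F1-HHcy, with a difference of -0.52 (SE 0.13, adjusted p = 0.0791 by limma). It was the only tested member with an unadjusted p under 0.05 in the lower direction. Of the summed alpha members, Itga6 made up 70.5% to 76.6% in F1-Control and 53.5% to 61.3% in F1-HHcy libraries. Itgb5 was below every control in every F1-HHcy library, with 26.4, 31.3 and 25.4 FPKM beside 32.8, 31.8 and 32.0 FPKM, but its difference of -0.21 (SE 0.11) did not pass. Itga3 overlapped, with a difference of 0.06 (SE 0.17).

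Marker genes of several cell types also differed between the diets at Pd3, where 5.0% of all genes were called higher and 4.74% lower. Of the stroma and theca markers 4 of 5 tested were called higher, of the endothelial markers 4 of 6, of the pericyte markers 3 of 5 and of the granulosa markers 3 of 6. The summed stroma and theca markers ranged from 384 to 466 FPKM in F1-Control and from 586 to 1259 FPKM in F1-HHcy libraries, the endothelial markers from 37.8 to 53.3 and from 66.9 to 97.1 FPKM, and the pericyte markers from 17.4 to 22.5 and from 34.4 to 42.4 FPKM. The erythroid markers, all 5 called lower, summed to 1454 to 4573 FPKM in F1-Control and 282 to 435 FPKM in F1-HHcy. The surface epithelium markers, 3 of 9 called lower, summed to 797 to 871 FPKM in F1-Control and 530 to 872 FPKM in F1-HHcy. Germ cell and oocyte markers were split, with 2 of 8 called higher, Gdf9 and Zp3, and 3 lower, Dazl, Sohlh1 and Kit. The part of these cell types in the members' differences was not tested. Without F1-Control Pd3 replicate 2 or without F1-HHcy Pd3 replicate 3 the count of called members was 4 instead of 2, with Itga6 then called lower.

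**Figure D2:**
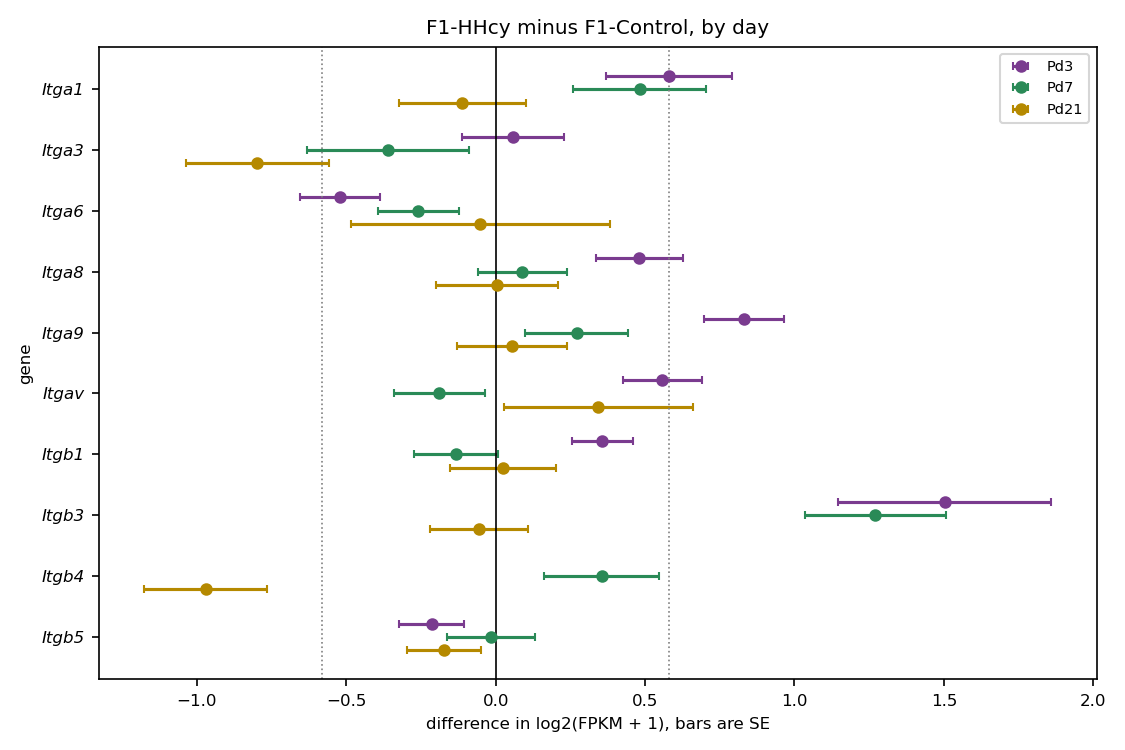
Difference between F1-HHcy and F1-Control in log2(FPKM + 1) (horizontal axis) for each integrin subunit at Pd3, Pd7 and Pd21; points are the limma estimates, bars their SE, and dotted lines mark 0.58 in either direction. Itgb3 lies beyond 1 at Pd3 and Pd7 and at -0.06 at Pd21, and Itgb4 (not tested at Pd3) lies at -0.97 at Pd21.

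At Pd7, Itgb3 was the only member called. Of 10 members tested, 1 was called higher, beside 9.06% of all 13299 genes, and 0 were called lower, beside 7.35% (0 lower by limma-voom as well, which called 2 higher). An unadjusted p under 0.05 was found for 1 of 10, beside 31.5% of all genes, and an adjusted p under 0.05 for 1 of 10, beside 11.9%. The groups did not overlap for 3 of 10 members, beside 39.0% of all genes. The median difference of the members was 0.04 and that of all genes tested 0.00. The shares with an unadjusted p under 0.05 and without overlap lay below those of all genes, and the share called higher was close to it.

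Itgb3 had 4.69, 3.39 and 7.79 FPKM in F1-Control and 12.0, 13.6 and 15.3 FPKM in F1-HHcy libraries at Pd7. Every F1-HHcy library lay above every control, and the ratio of means was 2.57. The difference was 1.27 (SE 0.24) with an adjusted p = 0.0106 by limma. The summed platelet markers were 9.74 to 13.9 FPKM in F1-Control and 4.01 to 8.85 FPKM in F1-HHcy. Most of it was Pf4, the only one of them tested, which was called lower. The granulosa markers, of which 4 of 7 tested were called higher, summed to 244 to 493 FPKM in F1-Control and 487 to 821 FPKM in F1-HHcy, and the stroma and theca markers to 1007 to 1178 and 1474 to 1845 FPKM. The stroma and theca markers were mixed, with 2 of 6 called higher, the steroidogenic genes Hsd3b1 (means 301 and 947 FPKM) and Cyp17a1 (3.49 and 136 FPKM), and 1 called lower, Dcn, the matrix proteoglycan decorin (487 and 272 FPKM). Called lower at this age were also 7 of 8 germ cell and oocyte markers (715 to 1190 and 430 to 761 FPKM summed), 6 of 9 surface epithelium markers (588 to 1070.5 and 256 to 483 FPKM) and 3 of 3 tested erythroid markers. So were 2 of 5 tested macrophage and leukocyte markers, with the list summing to 74.4 to 107 FPKM in F1-Control and 41.8 to 60.8 FPKM in F1-HHcy. Of all genes, 9.06% were called higher and 7.35% lower at Pd7. The part of these cell types in the difference of Itgb3 was not tested.

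The other subunits differed less at Pd7. Itga1 had 3.93, 2.55 and 5.49 FPKM in F1-Control and 6.46, 6.19 and 4.78 FPKM in F1-HHcy, and its difference of 0.48 (SE 0.22, adjusted p = 0.169 by limma) did not pass. Itgb1 had 149.998, 143 and 163 FPKM in F1-Control and 142, 138 and 135 FPKM in F1-HHcy, so the F1-HHcy libraries were just below the controls, with a difference of -0.13 (SE 0.14). Itga6 was likewise lower in all F1-HHcy libraries, with 54.3, 51.8 and 61.1 FPKM beside 69.3, 62.1 and 69.0 FPKM, and a difference of -0.26 (SE 0.14). Itga8, Itga9, Itgav, Itgb4 and Itgb5 overlapped between the groups, with differences from -0.19 for Itgav to 0.35 for Itgb4. Itga3 had 16.6, 6.71 and 10.5 FPKM in F1-Control, a wide spread, and 9.22, 8.64 and 6.48 FPKM in F1-HHcy, and its difference was -0.36 (SE 0.27). Without F1-Control replicate 3 or F1-HHcy replicate 3 Itga1 was called as well, and without F1-Control replicate 2 Itga3 was called lower, which made the count 2 in each case.

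At Pd21, Itgb4 and Itga3 were lower in F1-HHcy ovaries and no other member was called. Of 10 members tested, 2 were called lower, beside 5.06% of all 13350 genes, and 0 were called higher, beside 0.0824% (also 2 and 0 by limma-voom). Itgb4, a member of the pair, entered the test only through the 3 controls, since all F1-HHcy libraries lay under 1 FPKM, so its place in these counts is no support for them. An unadjusted p under 0.05 was found for 2 of 10, beside 6.85% of all genes, and the groups did not overlap for 3 of 10, beside 10.5%. By limma 0 of 10 had an adjusted p under 0.05, beside 2.23% of all genes, and by limma-voom 1 had, Itgb4. The median difference was -0.05 for the members and -0.01 for all genes tested.

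Itgb4 pairs with Itga6 and anchors epithelial cells to laminin through hemidesmosomes. It had 1.87, 2.07 and 2.93 FPKM in F1-Control and 0.971, 0.422 and 0.641 FPKM in F1-HHcy libraries at Pd21. Every control lay above every F1-HHcy library, and the mean of F1-HHcy was 0.296 of that of F1-Control. The difference was -0.97 (SE 0.20, adjusted p = 0.0561 by limma). The gene overlaps Galk1 in RefSeq, and although the libraries were stranded, the sources used here do not say whether strand was used in counting, so reads of the pair may not be separable where they overlap. Galk1 had means of 36.8 FPKM in F1-Control and 31.0 FPKM in F1-HHcy at Pd21, a difference of -0.27 (SE 0.21). Leaving out any 1 control library left Itgb4 untested, because fewer than 3 libraries then reached 1 FPKM, and the count of called members became 1.

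Itga3, which pairs with Itgb1 in laminin receptors of epithelia, had 10.6, 8.97 and 11.5 FPKM in F1-Control and 7.497, 3.54 and 6.11 FPKM in F1-HHcy libraries at Pd21. The groups did not overlap, the ratio of means was 0.552 and the difference was -0.80 (SE 0.24, adjusted p = 0.249 by limma). Without F1-HHcy replicate 2, the lowest library, the difference was -0.54 and Itga3 was no longer called. Itgb5 was also lower in all F1-HHcy libraries, with 36.8, 39.0 and 35.5 FPKM beside 39.8, 44.0 and 41.9 FPKM, but its difference of -0.17 (SE 0.12) did not pass.

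Markers of epithelium, oviduct, smooth muscle and fat were also called lower at Pd21, where 5.06% of all genes were called lower. Of the 9 surface epithelium markers 7 were called lower, and their summed level was 436 to 573 FPKM in F1-Control and 160 to 296 FPKM in F1-HHcy libraries. Krt18, a keratin of simple epithelia, had means of 79.9 and 29.2 FPKM (adjusted p = 0.0491 by limma). All 6 oviduct and ciliated markers were called lower, and summed to 89.7 to 482 FPKM in F1-Control and 7.93 to 19.7 FPKM in F1-HHcy. Ovgp1, the oviductal glycoprotein, had means of 206 and 1.19 FPKM and Foxj1, the regulator of motile cilia, of 56.4 and 0.354 FPKM. In F1-HHcy 4 of the 6 (Foxj1, Pax8, Tekt1 and Dnah5) had a mean under 1 FPKM and were tested through the control group, so this count is a description. Smooth muscle markers, 3 of 6 called lower, summed to 517 to 1069 FPKM in F1-Control and 393 to 586 FPKM in F1-HHcy. These ranges overlapped. The summed adipocyte markers, 2 of 3 tested called lower, also overlapped, with 8.21 to 52.8 and 2.85 to 15.0 FPKM. At Pd7, where 6 of 9 surface epithelium markers were called lower, Itgb4 gave 0.35 (SE 0.19) and Itga3 -0.36 (SE 0.27). The part of these markers' tissues in the differences of Itgb4 and Itga3 was not tested.

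**Figure D3:**
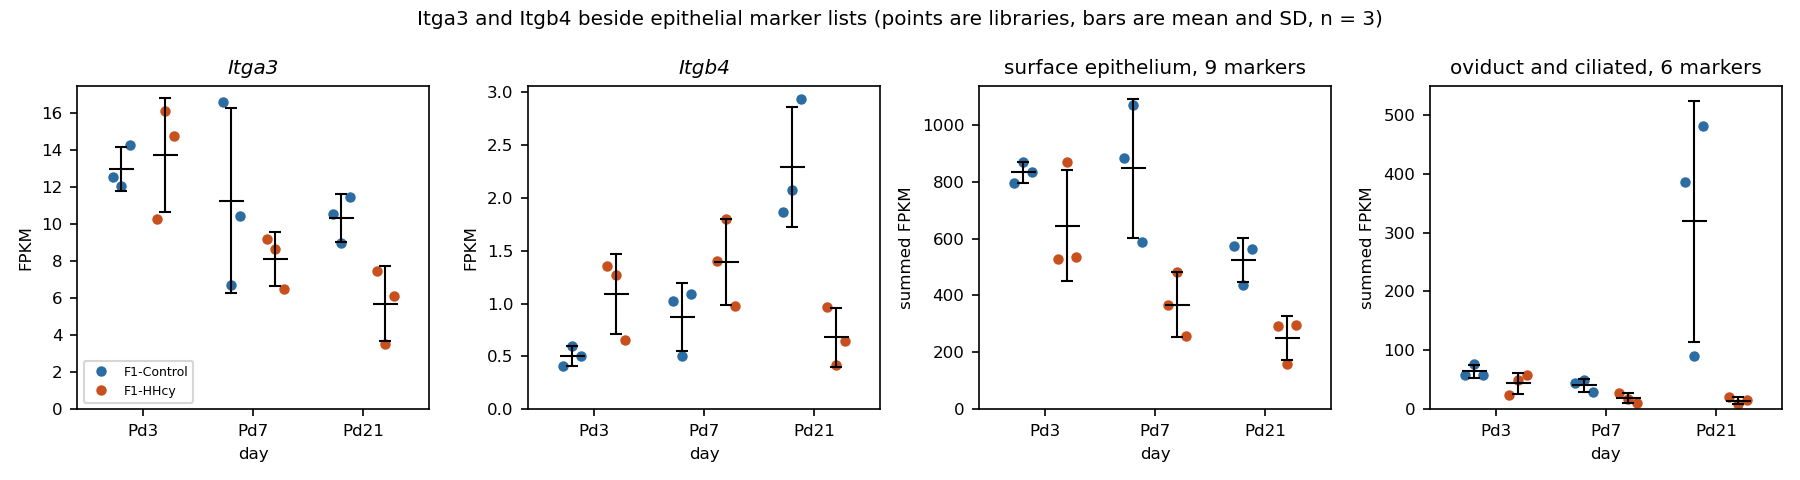
FPKM of Itga3 and Itgb4 and summed FPKM of 9 surface epithelium and 6 oviduct and ciliated markers (vertical axes, linear from 0) in each library by day; points are libraries and bars the group mean and SD of 3. At Pd21 all 4 quantities were lower in all F1-HHcy libraries than in all F1-Control libraries. At Pd3 most of the oviduct and ciliated sum was Epcam.

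The remaining members at Pd21 overlapped between the groups. Itgb3, which was higher at the earlier ages, had 10.3, 8.37 and 10.98 FPKM in F1-Control and 10.6, 8.24 and 9.51 FPKM in F1-HHcy, with a difference of -0.06 (SE 0.16). Itga9 (0.05, SE 0.18), Itgb1 (0.02, SE 0.18), Itga8 (0.00, SE 0.20) and Itga1 (-0.11, SE 0.21) gave differences smaller than their errors. Itga6 varied widely within both groups, with 62.6, 30.8 and 92.7 FPKM in F1-Control and 94.0, 44.1 and 38.7 FPKM in F1-HHcy, and its difference of -0.05 had an SE of 0.43. Itgav had 15.2, 39.1 and 27.2 FPKM in F1-HHcy beside 17.1, 25.5 and 17.7 FPKM in F1-Control, with a difference of 0.34 (SE 0.31). Each library held at least 5566 fragments of either gene at this age.

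Whether the diet difference itself changed with age was tested in 1 model of all 18 libraries and 14607 genes. Between Pd3 and Pd7 the change passed an adjusted p under 0.05 for 0 of 10 members by limma, beside 0.411% of all genes, and for 0 by limma-voom. Unadjusted p-values under 0.05 were found for 3, Itgb1 (-0.49, SE 0.18), Itga9 (-0.56, SE 0.24) and Itgav (-0.75, SE 0.34). The diet difference of Itga9 was smaller at Pd7 (0.27), and those of Itgb1 (-0.13) and Itgav (-0.19) had changed sign, without a call. Between Pd3 and Pd21 it passed for 2 of 10, beside 4.59% of all genes. The diet difference of Itgb3 changed by -1.56 (SE 0.42, adjusted p = 0.0418 by limma), and that of Itgb4 by -1.43 (SE 0.27, adjusted p = 0.00438 by limma). Between Pd7 and Pd21 it passed for 1 of 10, Itgb4, with -1.33 (SE 0.27, adjusted p = 0.00848 by limma), beside 3.89% of all genes. Itgb3 gave -1.33 (SE 0.42, adjusted p = 0.0927 by limma) for this pair of ages. Itgb3 between Pd3 and Pd21 no longer passed when any of 10 of the 12 libraries of those ages was left out, with the exceptions of F1-Control Pd3 replicate 3 and F1-HHcy Pd3 replicate 3, whereas Itgb4 passed in each case. Itgb4, too low for the diet comparison at Pd3 alone, was in this model through its level in the other groups. For Pd7 and Pd21 the count was 2 without F1-Control Pd7 replicate 3 (Itgb3 added) or without F1-HHcy Pd21 replicate 1 (Itgav added).

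The early developmental step from Pd3 to Pd7, which lies within batch 1, was then compared for each diet. In F1-Control ovaries 4 of 10 members rose with an adjusted p under 0.05, beside 5.27% of all 14607 genes, and 0 fell, beside 6.08% (also 4 and 0 by limma-voom, with 1 member, Itga6, lower at an unadjusted p under 0.05). The 4 were Itgb3 with 1.31 (SE 0.30, adjusted p = 0.0115 by limma), Itga1 with 0.86 (SE 0.23, adjusted p = 0.0263 by limma), Itga9 with 0.74 (SE 0.17, adjusted p = 0.01395 by limma) and Itgb1 with 0.44 (SE 0.13, adjusted p = 0.03805 by limma). Each of these genes had all Pd7 control libraries above all Pd3 control libraries. At the same threshold 6 of 6 smooth muscle, 5 of 6 endothelial, 4 of 7 granulosa and 4 of 6 stroma and theca markers rose in this step, and the part of these cell types was not tested. The members' calls depended on single libraries. Without F1-Control Pd3 replicate 1 or without F1-Control Pd7 replicate 3 the count was 0, and without F1-Control Pd3 replicate 2 it was 1.

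In F1-HHcy ovaries 1 of 10 members rose from Pd3 to Pd7, beside 2.29% of all genes, and 0 fell, beside 3.18% (also 1 and 0 by limma-voom, with 1 member, Itga3, lower at an unadjusted p under 0.05). It was Itgb3 with 1.08 (SE 0.30, adjusted p = 0.0447 by limma), and with the libraries of Pd3 and Pd7 alone it did not pass and the count was 0. Without F1-HHcy Pd3 replicate 2 or 3 or any 1 F1-HHcy Pd7 library the count was also 0, and without F1-HHcy Pd3 replicate 1 it was 2. Of all genes that passed in F1-HHcy 41.9% were higher at Pd7, and 54.1% after median-ratio scaling. Itga1 gave 0.77 (SE 0.23, adjusted p = 0.0598 by limma) in F1-HHcy. For Itga9 the step was 0.18 (SE 0.17), for Itgb1 -0.05 (SE 0.13), for Itgav -0.20 (SE 0.24) and for Itga8 0.03 (SE 0.16), while in F1-Control Itgav gave 0.54 (SE 0.24) and Itga8 0.42 (SE 0.16). The difference between the diets in this step is the change of the diet difference from Pd3 to Pd7 given above, which did not pass for any member by limma.

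**Figure D4:**
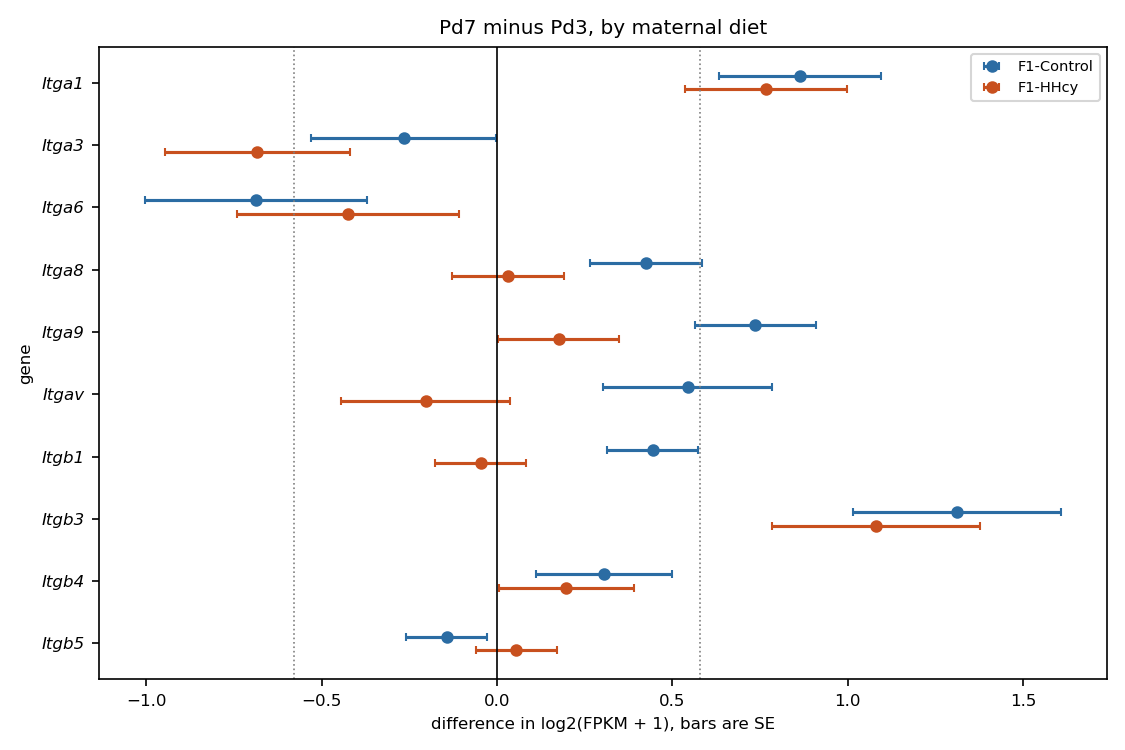
Difference between Pd7 and Pd3 in log2(FPKM + 1) (horizontal axis) for each integrin subunit in F1-Control (blue) and F1-HHcy (orange) ovaries; points are the limma estimates, bars their SE, and dotted lines mark 0.58 in either direction. Itgb3 and Itga1 lie to the right in both, and Itga9, Itgb1, Itgav and Itga8 lie nearer 0 in F1-HHcy.

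The diet comparison at Pd3 and the age comparison in F1-Control share the F1-Control libraries of Pd3, so the pair is not independent, and no test was made between them. The mean levels of all 10 members in F1-Control at Pd3, F1-HHcy at Pd3 and F1-Control at Pd7, in this order, are given side by side. Itga9 had 10.1 ± 1.22, 18.8 ± 2.17 and 17.7 ± 2.96 FPKM (SD, n = 3), Itgav 12.4 ± 1.69, 18.6 ± 1.88 and 18.5 ± 1.85 FPKM, and Itgb1 112 ± 5.16, 143 ± 10.1 and 152 ± 10.05 FPKM. Itgb3 had 1.48 ± 0.612, 6.48 ± 3.68 and 5.29 ± 2.26 FPKM, Itga1 1.69 ± 0.469, 3.05 ± 0.911 and 3.99 ± 1.47 FPKM, and Itga8 2.39 ± 0.419, 3.72 ± 0.365 and 3.54 ± 0.408 FPKM. Itgb4 had 0.501 ± 0.0937, 1.09 ± 0.379 and 0.872 ± 0.321 FPKM. These 7 members were lowest on average in F1-Control at Pd3. Itga6 and Itgb5 were highest there among the 3 groups, with 108 ± 9.87, 75.5 ± 10.8 and 66.8 ± 4.06 FPKM for Itga6 and 32.2 ± 0.557, 27.7 ± 3.16 and 29.1 ± 0.759 FPKM for Itgb5, and Itga3 had 13.0 ± 1.18, 13.7 ± 3.08 and 11.3 ± 5.01 FPKM. The mean summed markers in the same order were 430, 963 and 1095 FPKM for stroma and theca, 47.4, 81.0 and 83.0 FPKM for endothelium and 20.5, 38.5 and 39.8 FPKM for pericytes. Granulosa markers had 212, 361 and 340 FPKM, germ cell and oocyte markers 587, 771 and 950 FPKM, and smooth muscle markers 117, 252 and 481 FPKM. Surface epithelium markers, with 834, 646 and 848 FPKM, and erythroid markers, with 2844, 350 and 1042 FPKM, were lowest in F1-HHcy at Pd3. Oviduct and ciliated markers had 64.3, 43.7 and 40.8 FPKM, and macrophage and leukocyte markers 69.6, 72.0 and 88.1 FPKM. Most of the oviduct and ciliated sum at Pd3 was Epcam alone, with means of 56.4 FPKM in F1-Control and 35.7 FPKM in F1-HHcy.

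Ordered over the 6 groups, F1-Control at Pd3 had the lowest mean of Itga1, Itga8, Itga9, Itgav, Itgb1, Itgb3 and Itgb4 and the highest of Itga6. For Itgb3 the order was F1-Control Pd3, F1-Control Pd7, F1-HHcy Pd3, F1-HHcy Pd21, F1-Control Pd21 and F1-HHcy Pd7. The first and the last group stood apart from their neighbours, while the 3 pairs of neighbours between them overlapped in range. For Itgb4 the order was F1-Control Pd3, F1-HHcy Pd21, F1-Control Pd7, F1-HHcy Pd3, F1-HHcy Pd7 and F1-Control Pd21, in which the last group alone stood apart from its neighbour. For Itga9 F1-Control Pd3 alone stood apart from its neighbour at the low end, and for Itga6 F1-Control Pd3 alone at the high end. All 5 pairs of neighbours overlapped for Itga1, Itga3, Itga8 and Itgav. Itgb5 had its lowest mean in F1-HHcy at Pd3 (27.7 ± 3.16 FPKM) and its highest in F1-Control at Pd21 (41.9 ± 2.09 FPKM), and 2 of 5 neighbouring pairs overlapped.

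The laminin and collagen ligands of these receptors included many genes that were higher at Pd3. Of 26 listed genes 25 were tested at Pd3, and 11 were called higher and 0 lower (16 were higher and 0 lower at an unadjusted p under 0.05 by limma, and 11 were called by limma-voom), with a median difference of 0.57. The shares of all genes called higher were 5.0%, 9.06% and 0.0824% on the 3 days and those called lower 4.74%, 7.35% and 5.06%, and the counts of this and the following lists stand beside these shares without a test. Lama2, the laminin chain of muscle-type and stromal basement membranes, had 5.75, 6.30 and 8.24 FPKM in F1-Control and 24.9, 20.7 and 15.6 FPKM in F1-HHcy, a difference of 1.45 (SE 0.19, adjusted p = 0.0203 by limma). Col4a4, a type IV collagen chain, had 1.88, 2.29 and 2.45 FPKM beside 18.8, 14.0 and 7.54 FPKM, a difference of 2.09 (SE 0.29). Every F1-HHcy library exceeded every control for both genes. Nid1, nidogen, which links laminin to type IV collagen, gave 0.76 (SE 0.10) and Col5a1 0.93 (SE 0.15). The most abundant ligands, Col3a1 and Col1a2, fibrillar collagens of stroma, gave 0.38 (SE 0.15, adjusted p = 0.196 by limma) and 1.14 (SE 0.19, adjusted p = 0.0308 by limma).

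At Pd7, 7 of 24 tested laminin and collagen ligands were called higher and 1 lower, and the median difference was 0.30. Lamc3, a laminin gamma chain, had means of 4.98 and 20.9 FPKM and a difference of 1.98 (SE 0.28, adjusted p = 0.00404 by limma). At Pd21, 0 of 25 were called higher and 2 lower (0 with an adjusted p under 0.05 by limma or limma-voom, 2 with an unadjusted p under 0.05), with a median of -0.28. Lama5, a laminin alpha chain of epithelial basement membranes, was among those called lower with -0.80 (SE 0.31), and was named after its values were seen.

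RGD-containing and other ligands of Itgav, Itga8, Itga9, Itgb3 and Itgb5 receptors were tested for 20 of 28 genes at Pd3, of which 5 were called higher and 0 lower (1 gene was lower at an unadjusted p under 0.05, by limma), with a median of 0.39. Fbn1, the microfibril protein fibrillin, had 14.0, 14.7 and 17.0 FPKM in F1-Control and 33.0, 33.1 and 31.4 FPKM in F1-HHcy, a difference of 1.05 (SE 0.11, adjusted p = 0.01415 by limma). Fn1, fibronectin, gave 0.81 (SE 0.15, adjusted p = 0.0392 by limma). Ccn2, a matricellular ligand, had 5.39, 5.70 and 7.18 FPKM beside 36.1, 12.9 and 21.6 FPKM, a difference of 1.69 (SE 0.32, adjusted p = 0.0411 by limma). At Pd7, 6 of 22 were called higher and 4 lower, with a median of 0.14. Spp1, among those called lower, had a mean under 1 FPKM in F1-HHcy and was tested mainly through the control group, so this count is a description. Ccn2 gave 2.17 (SE 0.22, adjusted p = 0.00129 by limma) and Thbs1, thrombospondin and the most abundant of the list, 1.58 (SE 0.28, adjusted p = 0.008915 by limma). Vcam1, a cell surface ligand for Itga9 among others, had means of 1.78 and 8.77 FPKM (1.90, SE 0.27, adjusted p = 0.00456 by limma), and Postn, periostin, was lower with means of 68.4 and 22.9 FPKM (-1.56, SE 0.23, adjusted p = 0.00517 by limma). Mfge8, an RGD protein that was next in level to Thbs1 on average over all libraries, gave -0.03 at Pd3 and -0.17 at Pd7. At Pd21, 0 of 20 were called higher and 3 lower, Fn1, Npnt and Postn, named after their values were seen (0 of them with an adjusted p under 0.05 by limma or limma-voom), with a median of -0.20.

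On the intracellular side of integrin adhesion, of 34 tested genes of integrin activation and focal adhesion, 2 were called higher and 0 lower at Pd3 (5 were lower at an unadjusted p under 0.05, by limma), 4 higher, a share close to that of all genes, and 0 lower at Pd7 (2 lower at an unadjusted p under 0.05), and 0 at Pd21 (2 at an unadjusted p under 0.05 by limma, and 1 called by limma-voom). Their medians were 0.07, 0.00 and -0.15. Tns1, tensin, which binds beta subunit tails, gave 0.81 (SE 0.13, adjusted p = 0.0303 by limma) at Pd3, and Dock1, an activator of Rac, gave 0.57 (SE 0.11, adjusted p = 0.0427 by limma), just below the size for a call. At Pd7 Dab2, an endocytic adaptor of beta subunits, gave 0.95 (SE 0.21, adjusted p = 0.0201 by limma) and Kank2, a talin-binding protein, 0.76 (SE 0.18, adjusted p = 0.0258 by limma). Flna, filamin A, and Rap1b, a small GTPase of integrin activation, the most abundant of the list, were not called on any day. Of 7 tested hemidesmosome and tetraspanin partners, 0 were called at Pd3 (0 at an unadjusted p under 0.05 by limma and 0 called by limma-voom), Plec (plectin) was called higher at Pd7 with 0.83 (SE 0.35), and Cd82, a tetraspanin, was called lower at Pd21 with -0.62 (SE 0.13, adjusted p = 0.0553 by limma); both were named after their values were seen. Cd63 and Cd81, the most abundant of them, were called on no day.

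Of 17 other integrin subunits only 6, 5 and 4 passed the filter at Pd3, Pd7 and Pd21, and the listed genes summed to 13.4 to 26.2 FPKM in a library. By limma 0 were called on each of the 3 days, with 1, 2 and 0 at an unadjusted p under 0.05, and limma-voom called 1, 2 and 0. Itga5, the fibronectin receptor chain and the most abundant of them, gave 0.31 (SE 0.18), 0.32 (SE 0.23) and -0.25 (SE 0.24), and Itgb8, another Itgav partner, -0.13 (SE 0.19), -0.20 (SE 0.23) and 0.02 (SE 0.19).

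For each member the 3 genes with the most similar profile were taken as those with the highest Pearson correlation of log2(FPKM + 1) over the 18 libraries, among 14607 genes. The libraries share groups, so these are descriptions. Itgb3 was most like Adcy5 (0.982), Lamc3 (0.974) and Cped1 (0.972), and Itga9 was most like Nrp1 (0.952), Fermt2, the kindlin that activates integrins (0.951), and Pakap (0.941). Itga6 was most like Col18a1 (0.945), Kdm5b (0.942) and Pcsk6 (0.919), and Itgb1 was most like Zhx1 (0.933), Maoa (0.901) and Spin4 (0.899). Itga1 followed Angpt1 (0.931), Dubr (0.924) and Lrrk2 (0.907), and Itgav followed Phex (0.908), Kcnj3 (0.905) and Chrdl1 (0.898). Itga3 followed Sema3f (0.929), Myrf (0.922) and Cybrd1 (0.917), and Itgb4 followed Slc6a8 (0.932), Hoxb2 (0.91) and Aebp1 (0.904). Itgb5 followed Tmed10-ps (0.938), Pitpna (0.934) and Ergic1 (0.93). Itga8 had the least similar neighbours of the 10, Sorcs2 (0.851), Septin11 (0.837) and Cilp (0.837).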

How the data were processed

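Poly-A stranded RNA-seq libraries of whole ovary were analysed, 18 in all. The authors deposited FPKM values, in a file per library, with 30172 genes. The submitters' processing notes name FastQC 0.11.9, Trimmomatic 0.39, STAR 2.7.9a, featureCounts 2.0.1, Subread, DESeq2 1.36.0 and the build GRCm38 (mm10), with no role or order. The annotation, the strand setting in counting and the step from counts to FPKM are not given in the sources used here.

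Whole fragments could be recovered from the FPKM. With the length of each gene and the depth of each library solved for, whole numbers (within 0.02) resulted for 100.0% of 27294 genes that were above 0 in 3 or more libraries, covering at least 99.9957% of the depth of 33630641 to 39399281 fragments. Genes at 1 FPKM or more in at least 3 libraries were tested on log2(FPKM + 1) with limma 3.58.1 (R 4.3.3, mean-variance trend). The diets were compared on each day in the 6 libraries of that day, and a gene was called at an unadjusted p under 0.05 with a difference above 0.58 in size, a threshold shown in the study's volcano plots and applied here to another scale. Pd7 against Pd3 in each diet, and the change of the diet difference between days, came from 1 model of all 18 libraries with a Benjamini-Hochberg adjusted p under 0.05. Adjusted p-values are over all genes tested. Alternatives were a pseudocount of 0.1, no filter, the replicate number as a block, median-ratio scaling, limma-voom on the recovered fragments, all libraries in 1 model, batch 1 alone, an adjusted p as threshold and each library left out in turn. Leaving out libraries in the tests between days, and limma-voom there and for age, were chosen after seeing the data. The fits were tested on simulated data. Python 3.11.15, numpy 2.4.6, pandas 2.3.3, matplotlib 3.10.9 and data.table (version 1.17.8) were also used.

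The members and gene lists were chosen with earlier results of these data known. All 10 members were described. Of each list, genes were named with an adjusted p under 0.05 on a day, up to the 4 with the smallest p, as were the 2 with the highest mean level, and marker genes and the exceptions stated were named after their values were seen. Promoter windows and gene positions are from RefSeq. A result for 1 gene of the ligand lists is not reported here.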

Additional observations from a re-analysis of the deposited data

Results flagged for a closer look

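Among the integrin subunits 3 results stood out because the diet difference itself changed between ages in a model of all 18 libraries. The diet difference of Itgb3 changed by -1.559 (SE 0.419, adjusted p = 0.0418 by limma) from Pd3 to Pd21, from higher in every F1-HHcy library to overlapping groups. The diet difference of Itgb4 changed by -1.434 (SE 0.273, adjusted p = 0.00438 by limma) from Pd3 to Pd21 and by -1.326 (SE 0.273, adjusted p = 0.00848 by limma) from Pd7 to Pd21. Since Pd21 was a batch of its own, age and batch cannot be told apart in these 3 results, although each diet difference lay within a batch. Of 10 members 2 passed from Pd3 to Pd21, beside 4.59% of all genes, and 1 from Pd7 to Pd21, beside 3.89%. Itgb3 no longer passed when most single libraries of Pd3 and Pd21 were left out in turn. Itgb4 was too low for the diet comparison at Pd3 and entered that at Pd21 only through the controls.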

How the results depend on the processing

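The count of members called at Pd3 (2) was 5 with a pseudocount of 0.1, 4 with median-ratio scaling, 5 with limma-voom and 1 with an adjusted p as threshold. At Pd7 (1) it was 2 with limma-voom, and at Pd21 (2) it was 0 with an adjusted p as threshold. The count that changed from Pd3 to Pd7 in F1-HHcy (1) was 0 with a pseudocount of 0.1, 0 without the filter, 0 with batch 1 alone and 2 with median-ratio scaling, and the count for the change of the diet difference from Pd3 to Pd21 (2) was 1 without the filter. The causes were not tested, except that a stricter threshold calls fewer genes by construction.

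With 1 library left out, the counts ranged from 2 to 4 at Pd3, 1 to 2 at Pd7, 1 to 3 at Pd21, 0 to 3 for age in F1-Control (4 with all libraries) and 0 to 2 for age in F1-HHcy, and for the change of the diet difference from 1 to 3 (Pd3 to Pd21), 1 to 2 (Pd7 to Pd21) and 0 (Pd3 to Pd7). Differences that changed sign were none of them called. They ranged at Pd3 for Itga3 from -0.0628 to 0.24, and at Pd7 for Itgb5 from -0.14 to 0.0549. At Pd21 they ranged for Itga6 from -0.48 to 0.30, Itga8 from -0.12 to 0.15, Itga9 from -0.0581 to 0.21, Itgb1 from -0.0628 to 0.18 and Itgb3 from -0.16 to 0.0295. For age they ranged for Itga3 in F1-Control from -0.57 to 0.0275, and in F1-HHcy for Itga8 from -0.00957 to 0.0954, Itgb1 from -0.10 to 0.000229 and Itgb5 from -0.0703 to 0.14. For the change of the diet difference they ranged from Pd3 to Pd7 for Itga1 from -0.32 to 0.11, Itgb3 from -0.59 to 0.14 and Itgb4 from -0.27 to 0.0223, from Pd3 to Pd21 for Itgav from -0.52 to 0.14 and Itgb5 from -0.0143 to 0.13, and from Pd7 to Pd21 for Itga6 from -0.22 to 0.56 and Itga8 from -0.21 to 0.0615.

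Libraries of the 2 diets with the same number did not deviate together (correlations of their deviations -0.314 to 0.085). These correlations were not tested and cannot exclude that the numbers pair libraries, and the main comparisons treated the libraries as unpaired. With the replicate number as a block, the counts were 2, 1 and 2 on the 3 days, 4 and 0 for age in F1-Control and F1-HHcy, and 0, 2 and 1 for the change of the diet difference. Depth limits Itgb4 most, with 93 to 740 fragments per library.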
